A study of Mus musculus with 17 samples.

Results

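Replication origin licensing and helicase activation genes were followed across 15 chromatin profiles of mouse urothelium. The 10 genes are Gins1, Gins2, Gins3, Gins4, Cdc45, Cdc6, Cdt1, Gmnn, Orc1 and Orc6, taken by name from the 21887 protein-coding genes of the mm10 gene table. Profiles were made by CUT&RUN, in which an antibody brings a nuclease to the protein it recognises and the released DNA is sequenced. Antibodies recognised STAG2, a cohesin subunit, and LIN54 and p130, which are subunits of the DREAM complex. The cells were urothelial cells of peeled mouse bladders, either Stag2-WT or Stag2-KO, all collected 1 week after TMX induction. STAG2 was profiled in 2 WT and 2 KO libraries, LIN54 in 3 WT and 2 KO libraries, and p130 in 3 WT and 3 KO libraries. The age of the animals, the strain and the promoter that drives the recombination are not given in the sources used here, nor whether animals were pooled. The labels number the libraries of a group as biological replicates.

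At the start of a cell cycle, the origin recognition complex, with Orc1 and Orc6 among its subunits, binds DNA, and Cdc6 and Cdt1 help it load the MCM helicase. Geminin, the product of Gmnn, holds Cdt1 back once replication has begun, so that origins are not loaded again. Cdc45 and the GINS complex, built from the products of Gins1, Gins2, Gins3 and Gins4, join the loaded MCM ring and turn it into the active helicase. In cells that are not dividing, DREAM sits at promoters of cell cycle genes and holds them down: p130 with its E2F partners reads E2F sites, and LIN54 reads CHR elements.

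A gene was counted as marked in a library when the summit of a deposited peak lay within 500 bp of either gene end. Where several summits did, the one with the best p-value stood for the gene. The value of a peak is its fold enrichment, the fragment pileup at the summit over the background that the peak caller estimated in the same library. Libraries held 286079 to 539191 peaks at a p of up to 0.05, of which 316 to 25859 had a q of up to 0.01, so both sets are described. The STAG2-KO replicate 1 list had 1239 peaks at that q and the STAG2-WT lists had 13346 and 25859. All STAG2 and LIN54 libraries were of batch 1. Of the p130 libraries, WT replicate 1 was the only one of batch 2, and the others were of batch 3. Where p130 is set beside the other antibodies, antibody and batch therefore cannot be told apart. Background at summits was shallow, with a median of 1.54 to 2.53 fragments, so a missing peak means that none was detectable at this depth. Fold precision follows from the fragments: 12.2 on 59 fragments at Gins2 in LIN54-WT replicate 1 has an exact Poisson 95% interval of 9.30 to 15.6, and 5.03 on 12 fragments at Gins4 in the same library one of 2.79 to 8.50, for counting error only. Of 15 urothelial marker genes, 9 were marked in every STAG2-WT library (35.0% of all genes were), 6 in every LIN54-WT library (23.8%) and 1 in every p130-WT library (14.3%), and at q 0.01 the counts were 4, 0 and 0 (12.6%, 4.71% and 0.758%). Marker genes of other cell types, 5 for each type, were counted by the same rules. With deposited peaks, every STAG2-WT library marked 2 fibroblast, 1 immune, 1 endothelial and 0 smooth muscle genes, every LIN54-WT library 1 of each type, and every p130-WT library 1 fibroblast and 1 smooth muscle gene. At q 0.01 the counts were 0 for each of these types in each WT and KO group, except for 1 immune gene, Cd68, in both LIN54-KO libraries (15.8% of all genes were marked there). Of the 15 urothelial genes, 1 was marked at q 0.01 in every STAG2-KO library (1.90%), 2 in every LIN54-KO library (15.8%) and 0 in every p130-KO library (0.681%).

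The p130 antibody gave few q 0.01 peaks, and the licensing and GINS genes held several of them. At q 0.01, p130 peaks lay at 4, 3 and 5 of the 10 genes in the WT libraries, against 1.20%, 3.23% and 1.57% of all genes. In the KO libraries they lay at 5, 5 and 3, against 2.12%, 1.07% and 1.11%. In every p130-WT library Gins1, Gins2 and Cdc6 had such a peak (0.758% of all genes did), and in every p130-KO library Gins1 and Gins2 (0.681%). Counting all deposited peaks, 8 of 10 genes were marked in every p130-WT library (14.3% of all genes), the exceptions being Gins3 and Cdc45. In every p130-KO library 6 were marked (8.88%), namely Gins1, Gins2, Cdc6, Gmnn, Orc1 and Orc6. Cdc6 entered this count through a peak at its far end in KO replicate 2, on 5 fragments. No p130-KO peak at the Orc1 ends had a q of up to 0.01, and these peaks divided between the ends.

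LIN54 profiles marked 6.77% to 21.6% of all genes at q 0.01 and STAG2 profiles 2.36% to 29.3%, against 1.07% to 3.23% for p130. With deposited peaks the shares of the 3 antibodies overlapped. At q 0.01, Gins2, Gins4 and Orc6 had a LIN54 peak in every WT library (4.71% of all genes), and Gins1, Gins2, Gins4, Cdc45, Cdt1, Gmnn and Orc6 in both KO libraries (15.8%). With all deposited peaks, 8 genes were marked in every LIN54-WT library (23.8%), all but Cdc6 and Orc1, and 9 in both LIN54-KO libraries (35.5%), all but Orc1. At gene table ends, STAG2 peaks at q 0.01 lay at Gins1, Gins2, Gins4, Cdc6 and Orc6 in both WT libraries (12.6%). In both KO libraries they lay at Cdc45 alone (1.90%). With all deposited peaks the STAG2 counts were 7 genes in WT (35.0%) and 4 in KO (25.5%). Library by library at q 0.01, STAG2 peaks lay at 6 and 6 genes in WT (29.3% and 17.4% of all genes) and at 1 and 6 in KO (2.36% and 9.93%), and LIN54 peaks at 5, 6 and 3 genes in WT (10.4%, 13.1% and 6.77%) and at 7 and 8 in KO (21.6% and 20.0%). In STAG2-KO replicate 2 taken alone, 8 genes were marked and 6 had a q 0.01 peak, against 46.2% and 9.93% of all genes.

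**Figure D1:**
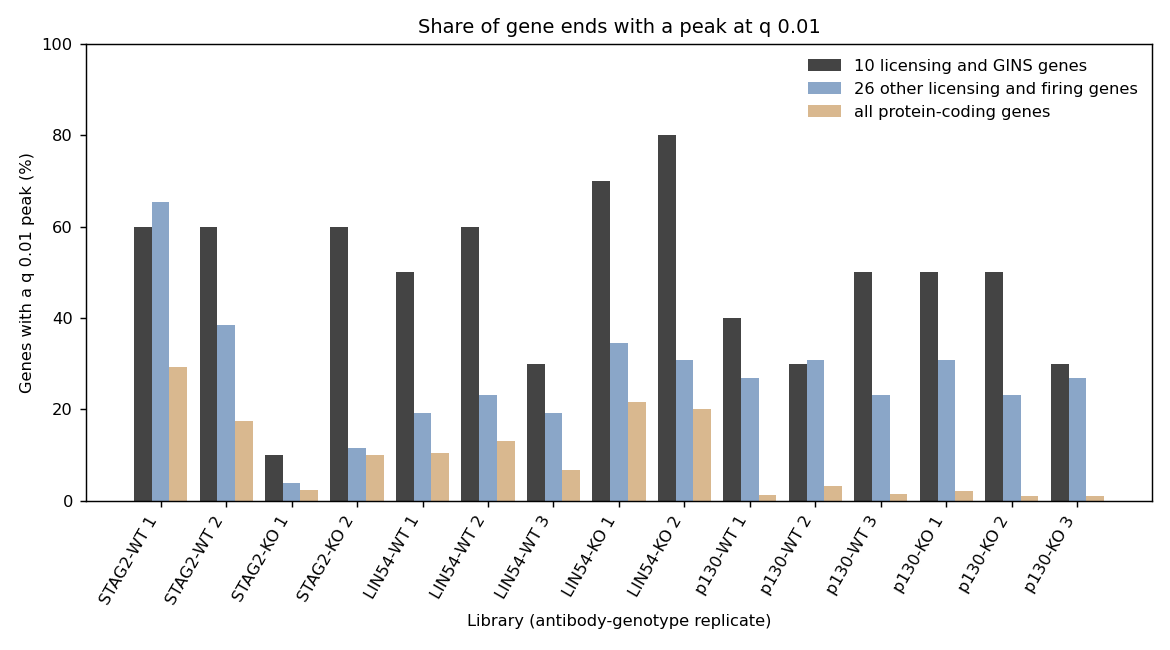
Percent of genes with a q 0.01 peak at a gene end in each library (vertical axis), for the 10 licensing and GINS genes, 26 other licensing and firing genes and all protein-coding genes. Bars are single-library values without error. The 10 genes lie above the share of all genes in each of the 15 libraries, with the lowest bar in STAG2-KO replicate 1, where 1 gene had such a peak.

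Counted by gene, with either end allowed, 5 genes had deposited peaks of all 3 antibodies throughout the WT libraries. Gins1, Gins2, Gins4, Gmnn and Orc6 were marked in every WT library of each antibody, as were 6.41% of all genes. At q 0.01 only Gins2 met this rule among the 10 genes (0.507%). The peaks of Gmnn did not share 1 site. Its lower end was marked in 3 of 3 LIN54-WT and 0 of 2 STAG2-WT libraries, and its higher end in 1 of 3 and 2 of 2. Across all 15 libraries of both genotypes, Gins2, Gmnn and Orc6 were marked throughout (1.92%), and 0 of the 10 at q 0.01 (0.142%). Gins1, Gins2, Gmnn and Orc6 were marked in every LIN54 and p130 library of either genotype (2.83%), and Gins2 at q 0.01 (0.375%).

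**Figure D2:**
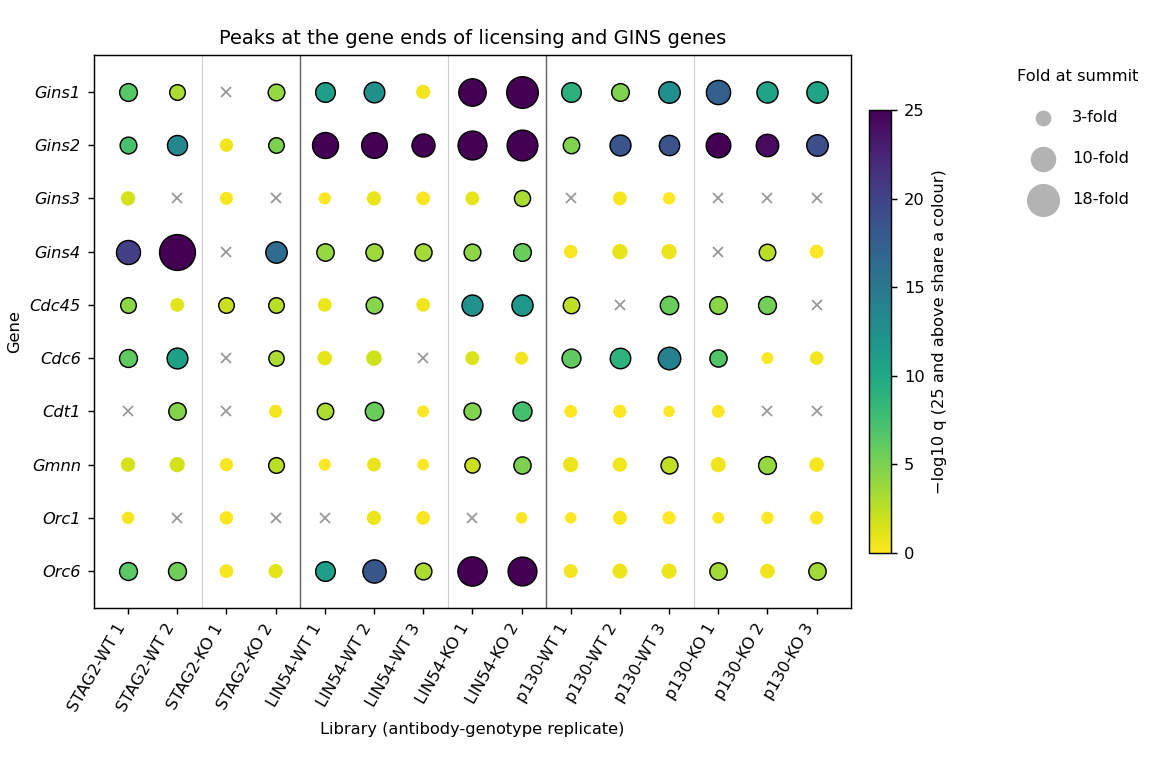
Deposited peaks at the ends of the 10 genes (rows) in the 15 libraries (columns), with dot area growing with fold and colour giving -log10 q. Black rims mark q up to 0.01 and crosses mark libraries without a peak. The row of Gins2 is filled in all libraries, and the row of Orc1 has no rimmed dot.

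Orc1 encodes the largest subunit of the origin recognition complex, and its gene table entry spans chr4:108575705-108616030. At those ends its peaks were weak. STAG2 folds were 2.24 in WT replicate 1 and 2.72 in KO replicate 1, with no peak in the other two libraries. LIN54 folds were 3.15 and 2.85 in WT replicates 2 and 3 and 1.85 in KO replicate 2. Folds for p130 were 1.77, 3.07 and 2.64 in WT and 1.97, 2.26 and 2.68 in KO. The peaks divided between the gene ends, 7 at the lower and 4 at the higher coordinate. All of these rested on 4 to 7 fragments and 0 had a q of up to 0.01.

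A different picture came from the start that the RefSeq promoter table gives for Orc1, position 108579454, which lies 3749 bp inside the gene table entry. A summit lay within 500 bp of that start in 15 of 15 libraries, and 11 of these peaks had a q of up to 0.01. STAG2 folds there were 6.20 and 5.41 in WT and 4.35 and 5.29 in KO. LIN54 folds were 4.90, 3.46 and 5.99 in WT and 4.94 and 7.21 in KO. With p130, folds were 4.29, 4.51 and 4.65 in WT and 7.30, 2.85 and 6.87 in KO. For STAG2 the WT values lay above both KO values, with 5.41 and 5.29 the nearest, while for LIN54 and p130 the genotypes overlapped. Among genes with a peak at a gene end in every STAG2 library, 54.4% had all WT folds above the KO folds. The KO replicate 1 summit lay at -485 bp from the start, against -73 bp in KO replicate 2 and -9 and -160 bp in WT. The 4 peaks that missed q 0.01 were those of LIN54-WT replicate 2, p130-WT replicates 1 and 2 and p130-KO replicate 2. Thus Orc1 had no q 0.01 peak at its gene table ends and was marked by all 3 antibodies at its annotated start. The STAG2 antibody marked that start in both Stag2-KO libraries too, and what it bound there was not tested. When that start replaced both ends wherever the promoter table gave one, the number of the 10 genes marked in every library was 8 for STAG2-WT (33.7% of all genes) and 5 for STAG2-KO (23.8%). It was 9 for LIN54-WT (22.9%), 9 for LIN54-KO (35.6%), 8 for p130-WT (11.2%) and 5 for p130-KO (6.92%).

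**Figure D3:**
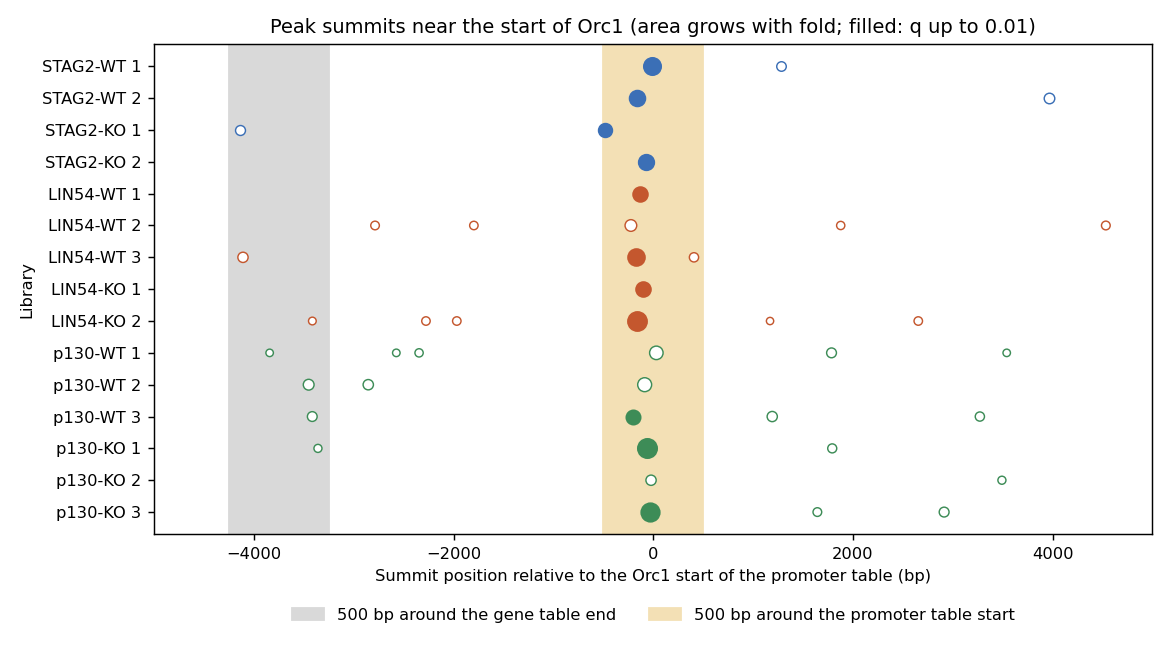
Summits within 5000 bp of the Orc1 start of the promoter table (horizontal axis, bp) in each library (vertical axis), with point area growing with fold and filled points for q up to 0.01. Summits gather in the band around the promoter table start, with 1 or more in each of the 15 libraries, while the band around the gene table end holds 7 libraries and no filled point.

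Orc6, a small subunit of the same complex, lies at chr8:85299632-85308279, and its marked end is the lower coordinate, which the promoter table gives as its start. STAG2 folds were 5.40 and 5.42 in WT and 2.87 and 3.14 in KO, on 17 and 14 against 8 and 10 fragments. LIN54 folds were 6.66, 9.59 and 4.66 in WT and 15.6 and 15.1 in KO, on 24, 28 and 12 against 42 and 39 fragments. Local backgrounds at these LIN54 summits were 2.75, 2.02 and 1.79 in WT against 1.76 and 1.65 in KO, and their part was not tested. The p130 folds were 3.01, 3.55 and 3.63 in WT and 5.0, 3.41 and 5.01 in KO. The genotypes did not overlap for STAG2, where WT was higher, or for LIN54, where KO was higher, and they overlapped for p130. Orc6 had a q 0.01 peak in 9 of 15 libraries, 2 STAG2, 5 LIN54 and 2 p130. Every summit also lay within 500 bp of the end of Vps35, whose nearest end is 115 bp away, so the 2 genes cannot be told apart.

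The promoter windows below run from 250 bases before to 50 bases after the annotated start, on the gene's own strand, from the RefSeq table of build GRCm38.p6. They are shown for Orc1 and Orc6, where all 15 libraries had a summit within 500 bp of the start, and for Gins3 and Cdt1, where E2F-like matches lie within 50 bases of it. Capitals mark matches on either strand. CHR-like letters were TTTGAA, found in 17.9% of all promoters of the table, and TTCGAA, in 1.56%. E2F-like letters were TTCGCGC, found in 1.59%, then TTGGCGC, in 2.45%, then TTCCCGC, in 4.6%, and then TTGCCGC, in 1.81%.
Orc1, chr4:108579204-108579503, plus strand: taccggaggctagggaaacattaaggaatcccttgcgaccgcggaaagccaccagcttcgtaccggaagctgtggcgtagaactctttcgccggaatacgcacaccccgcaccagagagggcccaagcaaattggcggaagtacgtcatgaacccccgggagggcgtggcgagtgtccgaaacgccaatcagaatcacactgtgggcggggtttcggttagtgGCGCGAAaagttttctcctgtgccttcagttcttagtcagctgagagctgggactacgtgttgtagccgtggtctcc
Orc6, chr8:85299382-85299681, plus strand: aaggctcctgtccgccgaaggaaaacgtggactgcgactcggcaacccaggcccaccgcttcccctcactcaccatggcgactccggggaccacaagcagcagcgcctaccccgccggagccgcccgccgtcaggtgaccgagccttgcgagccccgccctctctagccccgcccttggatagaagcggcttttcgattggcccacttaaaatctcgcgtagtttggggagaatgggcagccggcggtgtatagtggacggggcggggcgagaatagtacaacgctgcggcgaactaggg
Gins3, chr8:95633309-95633608, plus strand: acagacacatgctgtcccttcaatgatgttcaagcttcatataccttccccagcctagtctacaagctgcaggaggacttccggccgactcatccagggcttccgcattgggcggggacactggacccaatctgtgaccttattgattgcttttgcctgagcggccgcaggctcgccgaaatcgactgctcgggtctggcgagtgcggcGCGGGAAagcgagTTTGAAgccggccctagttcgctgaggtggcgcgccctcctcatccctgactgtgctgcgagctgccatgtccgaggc
Cdt1, chr8:122567765-122568064, plus strand: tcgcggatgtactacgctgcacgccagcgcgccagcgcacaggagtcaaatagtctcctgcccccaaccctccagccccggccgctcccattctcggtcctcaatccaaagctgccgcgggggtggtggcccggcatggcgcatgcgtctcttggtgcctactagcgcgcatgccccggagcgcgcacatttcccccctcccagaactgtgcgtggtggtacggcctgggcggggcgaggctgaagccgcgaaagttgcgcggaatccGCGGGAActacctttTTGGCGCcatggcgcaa
The table held 6 of the 10 genes, with Cdc45 and Cdc6 as the other two, and not Gins1, Gins2, Gins4 and Gmnn. Orc1 has 1 E2F-like match, GCGCGAA at base -27 from its start. Of 15 libraries, 14 had a summit inside its window, and 10 had a q 0.01 summit there. The q 0.01 summits lay at a median offset of -120 bases. Gins3 has GCGGGAA at base -41 and then TTTGAA at base -28. Cdt1 has GCGGGAA at base 18 and then TTGGCGC at base 33. Cdc45, whose window is not printed, has TTTGAA at base -240 and then TTCAAA, the same letters on the other strand, at base 10, and 1 library, of LIN54, had a summit inside that window. Cdc6 has GCGGGAA at base -138. The window of Orc6 holds no match, although 5 libraries had a summit inside it. Of 32851 promoters in the table, 19.2% hold a CHR-like match, 9.57% an E2F-like match and 1.16% both, so a CHR-like match is common. A match describes letters only.

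Cdc6, the loader that works with Cdt1, lies at chr11:98907709-98923942. Its p130 folds were 6.06, 7.27 and 8.98 in WT and 4.92, 2.00 and 2.81 in KO. Every WT value was above every KO value, also within batch 3, and WT summits lay within 46 bp of the lower gene end. The KO replicate 2 value comes from a peak at the other end of the gene, since that library had no summit at the lower end. When the summit nearest to a gene end stood for the gene, WT replicate 3 was read at the far end, with a fold of 2.42, the WT mean went from 7.44 to 5.25, and the genotypes overlapped. Fragments at these summits overlapped, with 17, 19 and 24 in WT and 24, 5 and 15 in KO. The local background under them was 1.97, 1.75 and 1.78 fragments in WT and 4.08, 2.01 and 4.69 in KO, and the part of that background in the lower KO folds was not tested.

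Cdc6 had other patterns with the other antibodies. STAG2 folds were 5.41 and 7.53 in WT and 3.75 in KO replicate 2, with no peak in KO replicate 1, whose nearest summit was 3518 bp away. LIN54 folds were 3.31 and 3.91 in WT replicates 1 and 2 and 2.99 and 2.49 in KO, all with a q above 0.01. The promoter table puts the start of Cdc6 at 98908151, inside the gene table entry, and 9 of 15 libraries had a summit within 500 bp of that start, 6 of them at q 0.01. These lay 384 to 488 bp before it, so 0 libraries had a summit in the promoter window, which begins 250 bases before the start.

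Cdt1, the other loading factor, lies at chr8:122568015-122573130. LIN54 folds were 4.44, 5.71 and 2.00 in WT and 4.78 and 6.17 in KO, with summits 108 to 328 bp outside the lower end. The genotypes overlapped, and 4 of these 5 peaks had a q of up to 0.01, the exception being WT replicate 3. STAG2 peaks were found in WT replicate 2, with a fold of 5.06, and in KO replicate 2, with 2.58. Folds for p130 were 2.42 (a peak at the higher end), 2.62 and 1.74 in WT and 2.45 in KO replicate 1, and 0 had a q of up to 0.01. Cdt1 was therefore marked in every LIN54 library and by p130 only weakly.

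Gmnn, which encodes the inhibitor of Cdt1, lies at chr13:24751845-24761937 and was marked in all 15 libraries, mostly weakly. STAG2 folds were 3.27 and 3.71 in WT, from peaks at the higher end, and 2.62 and 3.96 in KO, from peaks at the lower end, so they do not compare 1 site. At the higher end alone the KO folds were 2.26 to 2.32, and at the lower end 0 of 2 WT libraries had a summit. LIN54 folds were 2.05, 2.88 and 1.89 in WT and 3.66 and 4.94 in KO, so both KO values were above the WT values, while fragments overlapped (7, 10 and 7 against 10 and 14). Local backgrounds at these LIN54 summits were 2.89, 2.82 and 3.22 in WT against 2.01 and 2.04 in KO, and their part was not tested. With p130, folds were 3.71, 3.21 and 4.74 in WT and 3.65, 5.34 and 3.33 in KO and overlapped. All 5 LIN54 summits lay 237 to 353 bp outside the lower end. The p130 summits chosen for Gmnn lay inside the higher end in 5 of 6 libraries, and each of the 6 had a summit there, 252 to 368 bp inside. The q 0.01 peaks were in STAG2-KO replicate 2, both LIN54-KO libraries, p130-WT replicate 3 and p130-KO replicate 2. The leading LIN54 and p130 peaks of Gmnn thus stood at opposite ends of the gene in most libraries.

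Cdc45, the helicase cofactor, lies at chr16:18780447-18811972, and its marked end is the higher coordinate, its start in the promoter table. LIN54 folds were 2.89, 4.60 and 2.85 in WT and 7.64 and 7.78 in KO, on 11, 16 and 12 against 22 and 20 fragments. Both KO libraries were above the 3 WT libraries in fold and in fragments. Local backgrounds at these summits were 3.15, 2.70 and 3.57 fragments in WT against 2.01 and 1.70 in KO. The part of that lower background in the KO folds was not tested. STAG2 folds were 3.96 and 2.87 in WT and 3.90 and 3.86 in KO. By gene table ends, Cdc45 was the only one of the 10 genes with a q 0.01 peak in both STAG2-KO libraries. Orc1 also had such a peak in both, at its promoter table start. What the STAG2 antibody bound in Stag2-KO cells was not tested. The p130 folds were 4.42 and 5.70 in WT replicates 1 and 3 and 5.25 and 5.38 in KO replicates 1 and 2, with no peak in the other two libraries.

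Summits of Cdc45 differed by antibody in position. The p130 summits lay 254 to 335 bp inside the gene, the STAG2 summits 71 to 233 bp inside, and the LIN54 summits between 113 bp inside and 43 bp outside. The p130 range thus overlapped neither of the others, while the STAG2 and LIN54 ranges overlapped. Every summit also lay within 500 bp of the lower end of Ufd1, which lies 236 bp inside Cdc45, so by the gene table the 2 genes cannot be told apart. The promoter table puts the start of Ufd1 at 18812294 instead, outside Cdc45, where 0 libraries had a summit in the promoter window. All p130 summits (18811637 to 18811718) were more than 500 bp from that start, as was the STAG2-KO replicate 2 summit (18811739). All LIN54 summits (18811859 to 18812015) and the other STAG2 summits (18811813 to 18811901) lay within 500 bp of it. For these the 2 genes cannot be told apart by either start of Ufd1.

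**Figure D4:**
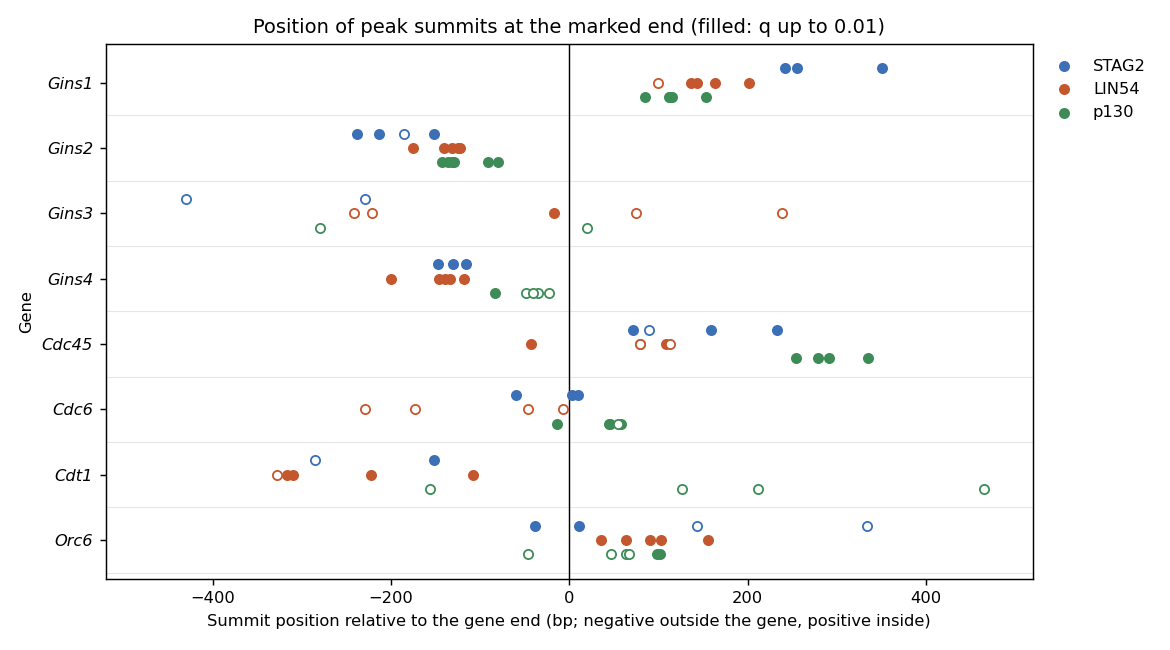
Summit positions relative to the marked gene end (horizontal axis, bp, negative outside the gene) for 8 genes, with colours for antibodies, filled points for q up to 0.01 and 1 point per library with a summit at that end. Gmnn and Orc1 are left out because their summits divide between gene ends. All Gins2 and Gins4 points lie outside the gene, all Gins1 points lie inside, and p130 points of Cdc45 lie farther inside than those of the other antibodies.

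Gins2, which encodes the Psf2 subunit of GINS, lies at chr8:120581266-120589075 and was the most regularly marked of the 10 genes. LIN54 folds were 12.2, 11.9 and 9.38 in WT and 15.2 and 17.3 in KO, on 59, 51 and 46 against 70 and 68 fragments. For p130 they were 4.43, 7.63 and 7.14 in WT and 10.8, 8.89 and 8.13 in KO, on 22, 38 and 41 against 45, 44 and 37 fragments. STAG2 folds were 4.61 and 6.93 in WT and 2.72 and 3.85 in KO, on 25 and 28 against 15 and 24 fragments. KO folds were above all WT folds for LIN54 and p130 and below them for STAG2, and only the p130 fragments overlapped. Against other marked genes of the same library, the LIN54 folds stood at the 97.7th to 99.1st percentile and the p130 folds at the 97.8th to 99.7th. Of the 15 peaks, 14 had a q of up to 0.01, the exception being STAG2-KO replicate 1, with q = 0.224. All 15 summits lay 80 to 238 bp outside the higher end, and 0 of them lay near Gse1, the neighbour at the lower end.

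Gins1, which encodes the Psf1 subunit, lies at chr2:150909556-150931280. LIN54 folds were 6.66, 7.44 and 3.10 in WT and 13.6 and 18.4 in KO, on 24, 24 and 9 against 32 and 42 fragments, with local backgrounds of 2.75, 2.36 and 2.23 against 1.43 and 1.34. Folds for p130 were 6.64, 5.19 and 8.10 in WT and 10.5, 7.77 and 7.95 in KO. STAG2 folds were 5.29 and 3.92 in WT and 4.53 in KO replicate 2, with no peak in KO replicate 1. Gins1 had the widest gap between genotypes for LIN54 among the 10 genes, with KO above WT in folds and fragments, while the p130 values overlapped. The part of the lower local background in the KO folds was not tested. All 6 p130 peaks had a q of up to 0.01 and stood at the 97.2nd to 99.5th percentile of their libraries. The p130 summits lay 85 to 153 bp, the LIN54 summits 99 to 202 bp and the STAG2 summits 242 to 351 bp inside the lower end.

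Gins4, which encodes the Sld5 subunit, lies at chr8:23226610-23237668 and had the tallest STAG2 peaks of the 10 genes. STAG2 folds were 10.3 and 23.9 in WT, on 30 and 60 fragments, and 8.04 in KO replicate 2, on 31 fragments. KO replicate 1 had no peak at Gins4, with its nearest summit 1110 bp away. The 2 WT libraries differed from each other by more than the lower of them differed from KO replicate 2. All 3 STAG2 folds stood at or above the 99.6th percentile of their libraries.

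With LIN54, Gins4 folds were 5.03, 4.88 and 4.87 in WT and 4.65 and 5.27 in KO, on 12, 11 and 12 against 13 and 15 fragments. These 5 values were the closest of any of the 10 genes, and the genotypes overlapped in fold. With p130, folds were 2.79, 3.78 and 3.72 in WT and 4.47 and 2.97 in KO replicates 2 and 3, and only the value of 4.47 had a q of up to 0.01. Summits lay outside the higher end, 118 to 200 bp for LIN54, 116 to 147 bp for STAG2 and 23 to 83 bp for p130, so that the p130 summits lay nearer the gene end than those of the other antibodies.

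Gins3, which encodes the Psf3 subunit, lies at chr8:95633559-95645059 and was the least marked GINS gene. LIN54 folds were 2.13, 3.17 and 2.90 in WT and 2.93 and 4.22 in KO. STAG2 folds were 3.19 in WT replicate 1 and 2.52 in KO replicate 1. The p130 folds were 2.94 and 2.26 in WT replicates 2 and 3, with no peak in the other 4 libraries. The first of these peaks lies at the lower end and the second, the stronger of 2 in that library, at the higher end. The lower end was marked in both libraries, with folds of 2.94 and 2.18. Its one q 0.01 peak was in LIN54-KO replicate 2, with q = 0.000503, on 12 fragments. Within batch 3 alone, the lower end of Gins3 was thus marked by p130 in both WT libraries and in 0 of 3 KO libraries. These WT peaks were weak, and that of replicate 2 had q = 0.471 on 7 fragments. In WT replicate 1, of batch 2, the nearest summit lay 537 bp from a gene end, just outside the window. The share of all genes with this pattern in batch 3 was not counted.

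**Figure D5:**
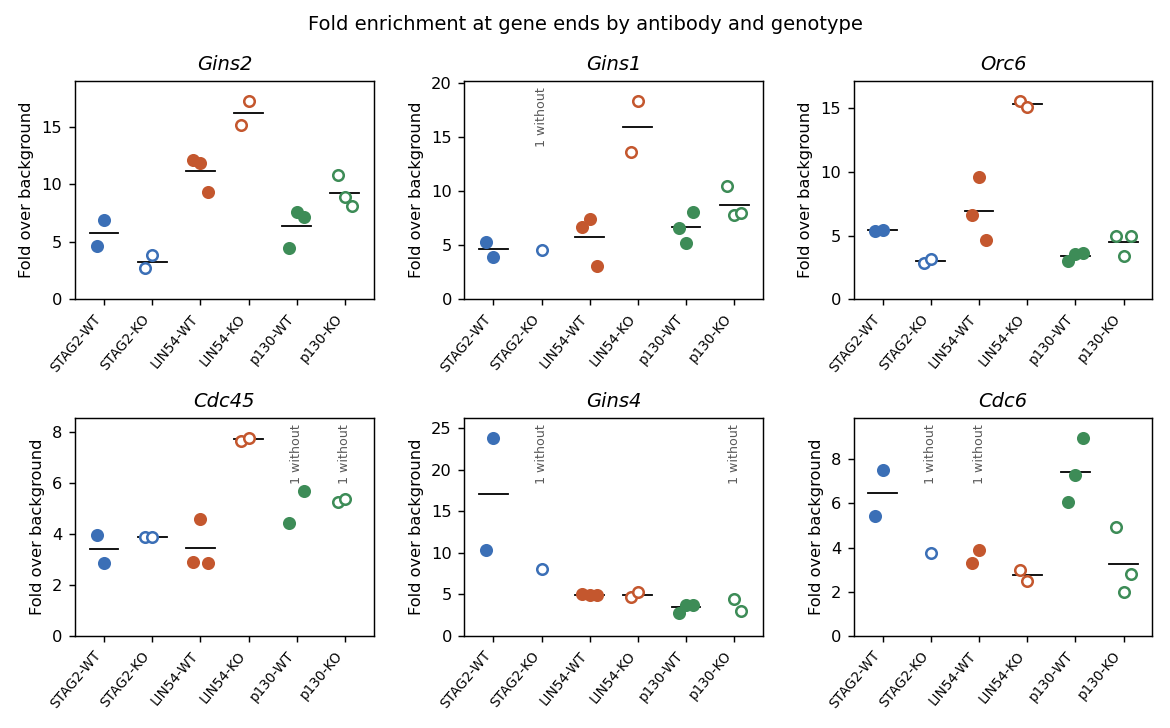
Fold at the summit (vertical axis, linear) for 6 genes by antibody and genotype, with 1 point per library, filled for WT and open for KO. Lines are group means where every library had a peak, and the number of libraries without one is written above the group. LIN54-KO points lie above all LIN54-WT points at Gins1, Gins2, Cdc45 and Orc6, and p130-WT points above p130-KO points at Cdc6, where the KO replicate 2 point is a peak at the far gene end.

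Between genotypes, LIN54 folds were compared at peaks of 1 gene end for each of 8 genes. Among genes marked in every LIN54 library, KO folds were all above WT folds at 5 of 8 of the licensing and GINS genes (Gins1, Gins2, Cdc45, Gmnn and Orc6), and at 46.1% of all such genes. WT folds were all above at 0 of 8 (2.64%). The median ratio of KO to WT geometric mean folds was 1.67 over the 8 genes and 1.39 over all 4319, with 2.95 at Gins1, 2.30 at Cdc45 and at Orc6 and 1.00 at Gins4. For STAG2, WT folds were all above KO folds at Gins2 and Orc6, 2 of 4 genes, against 54.4% of all such genes, and the reverse held at 0 of 4 (3.18%). The median KO to WT ratio for STAG2 was 0.705 over all 3555, and the ratios were 0.573 at Gins2, 0.554 at Orc6 and 1.15 at Cdc45. Gmnn, the other of the 4 genes, was read at different ends in WT and KO. Gins2 and Orc6 were lower in KO replicate 2 alone as well, at 3.85 and 3.14 against WT folds of 4.61 or more and 5.40 or more. The share of all genes lower in KO replicate 2 alone was not counted, so this does not set the 2 genes apart from the rest.

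For p130 the library-wide ratio was near 1, with a median of 0.965 over 838 genes. KO folds were all above WT folds at Gins2 (6.44% of all such genes) and WT folds all above KO folds at Cdc6 (8.95%). The KO to WT ratio was 1.48 at Gins2, 1.32 at Gins1, 1.30 at Orc6 and 0.412 at Cdc6, where KO replicate 2 was read at the far end. These folds are the caller's own values within each library and were not tested between genotypes. In such bulk profiles, fewer cells with a bound gene and less binding per cell cannot be told apart.

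No gene of the 10 was marked in every library of one genotype and in none of the other when all deposited peaks were counted. Leaving out STAG2-KO replicate 2 gave 3 WT-only genes for STAG2 (Gins1, Gins4 and Cdc6), and leaving out p130-WT replicate 1 or p130-KO replicate 1 gave 1 for p130, Gins3 or Cdt1. Without STAG2-KO replicate 2, the KO side rests on replicate 1, which marked 38.7% of all genes against 46.2% in replicate 2. Shares of all genes with a library left out were not counted. With no library left out, the WT-only share of all genes was 6.44% for STAG2, 1.38% for LIN54 and 2.42% for p130. The KO-only share was 2.03%, 2.04% and 0.854%. At q 0.01, Orc6 was marked by STAG2 in both WT and in 0 KO libraries (6.19%). Gmnn was marked by LIN54 in both KO and in 0 WT libraries (3.99%). In the other comparisons at q 0.01 the count was 0 of 10, against 0.0320% for STAG2 in KO only, 0.0183% for LIN54 in WT only, and 0.0228% and 0.00457% for p130 in WT only and KO only. Two-sided Fisher's exact tests of marked libraries between genotypes, run on each of 21887 genes and adjusted by Benjamini-Hochberg, passed 0.05 at 0 genes for each antibody, also before adjustment. The smallest exact p that the design allows is 0.333 for STAG2, 0.1 for LIN54 and 0.1 for p130, so this test could not have passed.

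Genes of the same pathway outside the 10 were taken as a list of 26, covering the other origin recognition subunits, the MCM helicase, firing factors and the ligases that destroy Cdt1. At q 0.01, 6 of 26 were marked in every p130-WT library and 6 in every p130-KO library, in both cases with Dtl, Mcm3, Mcm4 and Mcm5 among them. In every LIN54-WT library 4 were marked, Mcm10, Mcm3, Mcm4 and Ticrr, and in both LIN54-KO libraries 6, among them Cul4a, Dtl, Mcm10 and Mcm3. With STAG2 the counts were 8 in WT, among them Cul4a, Ddb1, Dtl and Mcm3, and 1 in KO, Dtl, which encodes the adaptor that directs Cdt1 to destruction. Mcm3 and Mcm4 are subunits of the helicase that Cdc6 and Cdt1 load, and Ticrr (treslin) helps Cdc45 to join it. The same all-gene shares as above apply: 0.758% and 0.681% for p130, 4.71% and 15.8% for LIN54, and 12.6% and 1.90% for STAG2.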

How the data were processed

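CUT&RUN peak lists of 15 libraries were analysed, leaving aside 2 pMNase controls. The submitters' processing notes name MACS2, Bowtie2 and bcl2fastq and the build mm10, with versions and settings, and the use of a control library, not given in the sources used here. Each library has its own list, so peaks were called per library. The authors deposited a fold enrichment per summit (a ratio to background), -log10 p and -log10 q values, a score that was not used, and a summit offset. These values belong to 1 library each and were not tested between libraries.

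Gene ends came from a RefSeq gene table of GRCm38.p6, the assembly of mm10, which has no strand, so both ends counted, within 500 bp. Fragments and background at a summit were solved from fold and p, which gave whole counts within 0.0002 on the log10 scale for 100% of 500 peaks tested per library. Peak presence was compared by Fisher's exact test per gene over libraries. Percentiles rank a fold among the marked genes of its library. All 10 genes were named, and genes of the list of 26 by up to 4 in alphabetical order. Cd68 was named after its values had been seen. The genes and lists were chosen with earlier results of these data known. Alternatives were q limits, the 20000 best peaks, windows of 250 and 1000 bp, the 5′ end alone, any peak overlap, the nearest summit, batch 3 alone, a replicate block and each library left out. Same-numbered WT and KO libraries had deviations in peak presence correlated at -0.0038 to 0.016, and different-numbered ones at -0.022 to 0.012. With 2 or 3 libraries in a group, these values cannot decide whether the numbers pair the libraries. Code was tested on simulated data. Tools were SciPy 1.17.1, pandas 2.3.3 and NumPy 2.4.6 under Python 3.11.15, with Matplotlib 3.10.9 for plots.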

Additional observations from a re-analysis of the deposited data

How the results depend on the processing

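Counts of the 10 genes marked in every library depended on the peak set. Deposited peaks gave 7 for STAG2-WT, 4 for STAG2-KO, 8 for LIN54-WT, 9 for LIN54-KO, 8 for p130-WT and 6 for p130-KO. At q 0.01 the counts were 1 for STAG2-KO, 3 for LIN54-WT, 3 for p130-WT and 2 for p130-KO. At a -log10 q of 5 they were 4, 0, 1, 4, 1 and 2 in the order above. With the 20000 best peaks they were 2 for STAG2-KO, 4 for LIN54-WT and 4 for p130-WT, and a 250 bp window gave 5 for p130-WT. Leaving out a library gave 6 to 8 for STAG2-KO, with 8 without replicate 1. Shares of all genes were not counted at a -log10 q of 5, with the 20000 best peaks, with other windows or with a library left out. Whether the counts under those settings exceed the share of all genes is therefore not known.

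Genes marked in 1 genotype alone numbered 0 with deposited peaks. WT-only counts for STAG2 were 1 at q 0.01, 3 at a -log10 q of 5, 1 with the 5′ end alone and 0 to 3 with a library left out, the 3 arising without KO replicate 2. KO-only counts were 1 for STAG2 with a 250 bp window, and 1 for LIN54 at q 0.01, at a -log10 q of 5, with the 20000 best peaks and with a 250 bp window. WT-only counts for p130 were 1 with a 1000 bp window, with any overlap, in batch 3 alone, and 0 to 1 with a library left out, the 1 arising without WT replicate 1 or KO replicate 1. The cause was not tested in any of these. Shares of all genes marked in 1 genotype alone were counted only for deposited peaks and at q 0.01, and not for the other settings. The replicate block gave 0 genes for each antibody, as did the test without it, with smallest possible exact p-values of 0.5, 0.5 and 0.25. Of the mean folds of single genes, 4 of 115 moved by more than 1 SD under another window or summit choice: with the nearest summit Cdc6 in p130-WT was 5.25, Gmnn in STAG2-KO 2.29 and in p130-WT 2.84, and with a 1000 bp window Gmnn in LIN54-WT was 2.90. Leaving out 1 of 2 or 3 libraries cannot move a mean by 1 SD, so that measure says nothing there, and the Gins4 mean in STAG2-WT, 17.1, was 10.3 without replicate 2 and 23.9 without replicate 1. At a background of 1.54 to 2.53 fragments, weak peaks such as those of Gins3 are near the detection limit.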

Other observations

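The genes whose pattern over the 15 libraries was most like the mean pattern of the 10 licensing and GINS genes were H1f0, Kat14, Septin8, Zgrf1 and Larp7. Likeness was the Spearman correlation of the percentile of a gene's fold among the marked genes of each library, taken over 5801 genes marked in at least 10 libraries. The values were 0.825, 0.773, 0.763, 0.760 and 0.758. All points share the depth and background of their libraries, so these values are descriptions only.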
